A study of Mus musculus with 16 samples.

Results

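The Paneth cell antimicrobial genes described here were Lyz1, Mmp7, Ang4, Itln1, Defa17, Defa21, Defa22, Defa24 and Defa26. They were chosen by name: the 9 rows of the count table whose Ensembl ID maps to these symbols were taken, out of 21965 genes, and all 9 had enough reads to be tested. Poly(A) RNA from the terminal ileum was sequenced in 16 males, 1 library each. The mice were C57BL/6 wild types (WT) and fat-1 littermates, 8 to 10 weeks old when the liquid diets began. Every fat-1 mouse carried 1 copy of a C. elegans n3 fatty acid desaturase, expressed in all tissues, that converts n6 to n3 polyunsaturated fatty acids. EtOH mice (3 WT EtOH and 5 fat-1 EtOH) drank a liquid diet with ethanol raised stepwise to 6%, the level of the last 3 weeks. PF mice (4 WT PF and 4 fat-1 PF) were pair-fed the same calories with maltose dextrin in place of ethanol. The questions were whether genotype, EtOH or their combination changed these transcripts.

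Paneth cells sit at the base of the crypts of the small intestine, between the stem cells, and release granules that kill or bind microbes. Alpha-defensins, the cryptdins of the mouse, are short cationic peptides that break microbial membranes, and lysozyme cuts the bacterial cell wall. Paneth cells are abundant in the ileum and are normally absent from the mouse colon.

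Of the members, Defa17, Defa21, Defa22, Defa24 and Defa26 encode alpha-defensins and lie on chromosome 8 (GRCm38, plus strand) within a cluster of 28 alpha-defensin genes of the table, which spans bases 21025545 to 21735471. Defa21 runs from 21025545 to 21026516, Defa22 from 21162277 to 21163249, Defa26 from 21618183 to 21618972, Defa17 from 21655780 to 21656735 and Defa24 from 21734494 to 21735471. The coding sequences below, taken from GENCODE M21 transcripts, are shown because they decide which reads can be told apart. Each is 282 bases long. Defa17 has no capitals. Capitals in Defa21 and Defa22 mark the 2 bases at which these genes differ, and capitals in Defa24 mark the 58 bases at which it differs from Defa22.
Defa21: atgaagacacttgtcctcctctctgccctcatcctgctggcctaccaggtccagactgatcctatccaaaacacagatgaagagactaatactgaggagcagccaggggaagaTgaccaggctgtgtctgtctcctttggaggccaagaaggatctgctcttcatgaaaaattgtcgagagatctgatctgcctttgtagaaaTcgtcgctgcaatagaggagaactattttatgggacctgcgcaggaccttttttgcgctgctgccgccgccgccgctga
Defa22: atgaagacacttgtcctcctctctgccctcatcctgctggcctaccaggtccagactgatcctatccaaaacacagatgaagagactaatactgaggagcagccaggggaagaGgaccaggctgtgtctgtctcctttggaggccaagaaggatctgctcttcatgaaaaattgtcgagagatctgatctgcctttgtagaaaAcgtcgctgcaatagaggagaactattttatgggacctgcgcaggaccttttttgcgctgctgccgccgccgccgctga
Defa24: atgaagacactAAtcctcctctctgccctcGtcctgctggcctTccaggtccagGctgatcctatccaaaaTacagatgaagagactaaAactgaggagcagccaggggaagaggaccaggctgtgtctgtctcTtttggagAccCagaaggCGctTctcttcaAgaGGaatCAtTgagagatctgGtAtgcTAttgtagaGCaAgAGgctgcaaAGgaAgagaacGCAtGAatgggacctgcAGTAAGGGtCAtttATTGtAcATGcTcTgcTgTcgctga
Defa17: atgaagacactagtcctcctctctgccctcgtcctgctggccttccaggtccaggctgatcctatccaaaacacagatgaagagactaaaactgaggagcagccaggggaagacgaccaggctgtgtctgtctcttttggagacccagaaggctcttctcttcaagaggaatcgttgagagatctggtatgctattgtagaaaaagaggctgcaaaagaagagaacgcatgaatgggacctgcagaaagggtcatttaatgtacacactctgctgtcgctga
Defa21 and Defa22 were thus 99.3% identical in their coding sequence, and Defa24 and Defa22 79.4%. Defa17 had the same coding sequence as Defa3, which is no member, at all 282 bases.

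The reads were pairs of 75 bases, and the settings with which they were counted are not given in the sources used here. A stretch of 75 bases that occurs in transcripts of more than 1 gene cannot be assigned by sequence alone. Of all such stretches in its transcripts, Defa17 shared 91.3% with another gene, all of them with Defa3. The share was 56.4% for Defa21 and 56.2% for Defa22, in both cases with the other of the pair. It was 14.1% for Defa26 (with Gm15292), 6.67% for Defa24 (with Defa30), 6.22% for Lyz1 (with Lyz2) and 0.787% for Ang4 (with Ang5). Mmp7 and Itln1 shared none. Of the 28 alpha-defensin genes, 9 had at most 4 counts in every library, and a median of 100% of their stretches was shared, against 38.0% for the other 19. The separate levels of Defa17, Defa21 and Defa22 are therefore uncertain, and those of Defa24, Lyz1, Ang4, Mmp7 and Itln1 are nearly free of this limit.

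The other members lie elsewhere. Lyz1 (chromosome 10, 117287797 to 117292868, minus strand) encodes the lysozyme of Paneth cells. Mmp7 (chromosome 9, 7692090 to 7699585, plus strand) encodes matrilysin, the protease that activates alpha-defensin precursors in the mouse. Ang4 (chromosome 14, 51763878 to 51773590, minus strand) encodes a microbicidal ribonuclease, and Itln1 (chromosome 1, 171518122 to 171535294, minus strand) encodes intelectin, which binds microbial sugars. Paneth and goblet cells can both make Ang4 and Itln1.

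The libraries held 8422645 to 11438539 counted reads, and the values of single mice below are CPM, counts scaled to a common library size that was set by the trimmed mean of M-values (TMM), at which 3 counts were 0.246 to 0.421 CPM. Libraries numbered 1 to 8 were PF and 9 to 16 EtOH, so the order of the libraries and the diet cannot be told apart. Of 16 libraries, 5 stood apart on markers of gut region. In the fat-1 EtOH group, replicates 3 and 4 held 12354 and 13361 CPM summed over 9 large intestine genes, such as Car1, and replicate 2 of the WT EtOH mice held 4968, against 183 to 533 in the other 13 libraries. In the fat-1 PF group, replicates 2 and 4 held 58750 and 56893 CPM of 9 proximal small intestine genes, such as the lactase gene Lct, against 3552 to 18323 in the other PF libraries. They also held 488 and 250 CPM of 4 distal ileum genes, such as the bile acid transporter gene Slc10a2, against 1901 to 5761. Of the 9 large intestine genes, 1 to 5 were at 0 in each library, and of the 9 proximal genes, 2 and 1 were at 0 in fat-1 EtOH replicates 3 and 4 and 0 elsewhere. The proximal genes moved with diet in all libraries, at 346 to 1705 CPM in EtOH mice. Summed all-epithelium markers lay between 9550 and 16341 CPM throughout, lowest in fat-1 EtOH replicates 3 and 4. Summed smooth muscle markers lay between 905 and 1433 CPM in PF mice and between 1856 and 4037 CPM in EtOH mice, and their part in the results was not tested. The results are given with all 16 libraries and with the 11 that remain without these 5 (4 WT PF mice and 2 fat-1 PF mice, with 2 and 3 on EtOH), a choice made after the values were seen. The part of gut region in the results was not tested beyond that.

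With all lengths scaled to 1 kb of exon, the members spanned a wide range of levels in WT PF mice. Defa24 was highest, at 18146 ± 2322 CPM per kb (SD, n = 4). Lyz1 followed at 7685 ± 1353, Defa21 at 4218 ± 771, Defa22 at 4070 ± 599, Itln1 at 2638 ± 334 and Ang4 at 897 ± 131 CPM per kb. Defa17 had 535 ± 60.9, Mmp7 259 ± 33.6 and Defa26 227 ± 6.12 CPM per kb. Neighbours in this order did not overlap between mice, except Defa21 with Defa22 and Mmp7 with Defa26.

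Lyz1 showed where the libraries split. Its level was 8386, 12205, 9323 and 8909 CPM in the WT PF mice (values of a group are in the order of its replicates), and the fat-1 PF mice had 7749, 2115, 9923 and 3025 CPM. The WT EtOH mice had 6405, 3846 and 7842 CPM, and the fat-1 EtOH mice 7181, 6979, 42.7, 42.2 and 3964 CPM. The WT PF mice were all above the WT EtOH mice, and 24.3% of all genes tested kept these groups apart in either direction. The low values in each other group were those of the libraries with another region's markers and of fat-1 EtOH replicate 5. In that last library, which held 485 CPM of 6 B-cell follicle genes against 1.96 to 97.8 in the others, Lyz2, the lysozyme gene of macrophages, stood at 452 CPM, against 51.0 to 127 CPM in the other 15.

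Defa24, the most abundant member per kb of exon, showed the same split, with higher relative levels in the 2 libraries rich in proximal genes. It had 7321, 9004, 7339 and 6749 CPM in WT PF mice and 5778, 3062, 8340 and 3833 CPM in fat-1 PF mice. In WT EtOH mice it had 4778, 3487 and 6361 CPM, and in fat-1 EtOH mice 5446, 4904, 35.0, 40.2 and 3209 CPM. Every WT EtOH value lay below every WT PF value, a separation that 24.3% of all genes tested showed in either direction.

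Defa21 was far lower in replicates 2 and 4 of the fat-1 PF group. Its level was 1357, 2146, 1772 and 1777 CPM in WT PF mice and 1425, 59.2, 1981 and 76.9 CPM in fat-1 PF mice. In WT EtOH mice it was 1180, 890 and 1801 CPM, and in fat-1 EtOH mice 1415, 1217, 8.19, 10.96 and 793 CPM. Defa22 had much the same levels as its near copy, from 1413 to 2026 CPM in WT PF mice, 54.4 to 1828 in fat-1 PF mice, 895 to 1873 in WT EtOH mice and 8.03 to 1307 in fat-1 EtOH mice. The ratio of Defa21 to Defa22 counts stayed between 0.961 and 1.09 in all 16 libraries, and more than 56% of the 75-base stretches of each are shared.

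Defa17 had 214, 244, 204 and 187 CPM in WT PF mice and 169, 127, 251 and 178 CPM in fat-1 PF mice. In WT EtOH mice it had 150, 112 and 173 CPM, and in fat-1 EtOH mice 150, 142, 0.737, 1.25 and 88.9 CPM. The libraries rich in proximal genes thus lay near the other PF mice for this gene. The WT groups did not overlap, as for 24.3% of all genes tested in either direction. Defa26 ran from 82.6 to 87.8 CPM in WT PF mice, a coefficient of variation of 2.69%, the smallest of any member, from 39.0 to 89.6 in fat-1 PF mice, from 46.2 to 92.4 in WT EtOH mice and from 0.573 to 81.9 in fat-1 EtOH mice.

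Itln1 ran from 2659 to 3546 CPM in WT PF mice, from 1082 to 3531 in fat-1 PF mice, from 1407 to 3016 in WT EtOH mice and from 16.7 to 2359 in fat-1 EtOH mice. Mmp7 had 272, 308, 228 and 299 CPM in WT PF mice and 270, 85.4, 247 and 122 CPM in fat-1 PF mice. In WT EtOH mice it had 240, 153 and 381 CPM, and in fat-1 EtOH mice 304, 216, 5.00, 7.84 and 178 CPM. The highest Mmp7 value of all was that of an EtOH mouse, and so was the highest Ang4 value. Ang4 had 575, 773, 611 and 586 CPM in WT PF mice and 493, 145, 619 and 171 CPM in fat-1 PF mice. In WT EtOH mice it had 818, 261 and 826 CPM, and in fat-1 EtOH mice 696, 579, 27.4, 8.46 and 413 CPM.

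**Figure D1:**
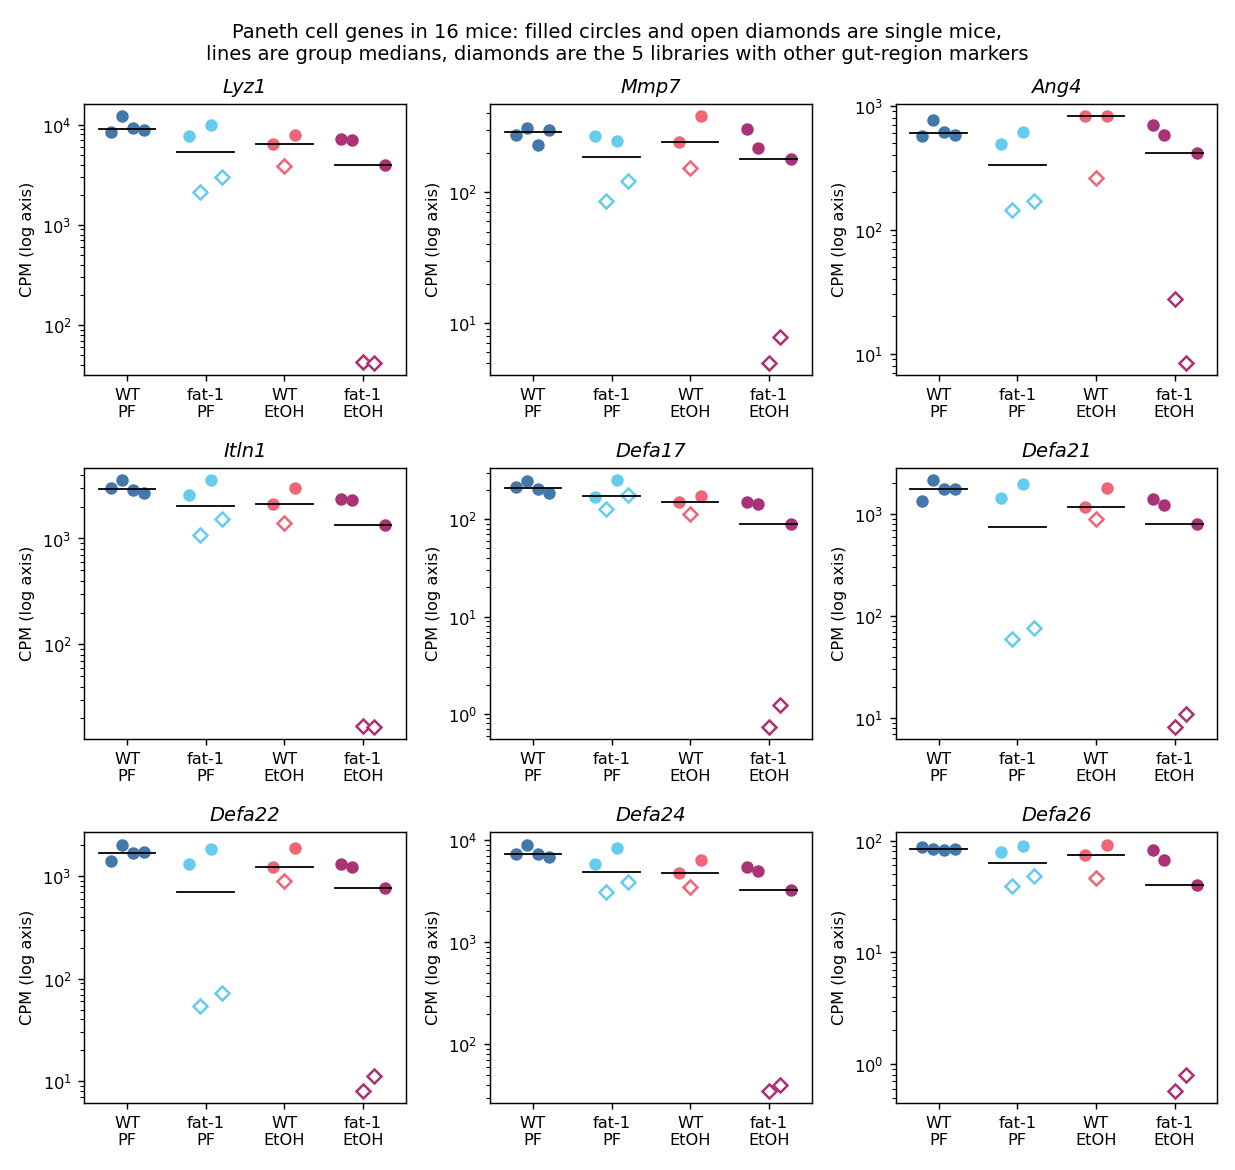
Each panel plots the CPM of 1 gene (log axis) in the 16 mice by group, with a line at the group median. Filled circles are mice and open diamonds the 5 libraries with other gut-region markers. The 2 fat-1 EtOH diamonds lie below all other points in every panel, and the 2 fat-1 PF diamonds lie furthest below their group for Defa21 and Defa22.

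Summed over the 9 members, the genes took 2.10 to 2.73% of all counted reads in WT PF mice and 1.13 to 2.33% in WT EtOH mice. In fat-1 PF mice they took 1.86 and 2.32% in replicates 1 and 3 but 0.573 and 0.786% in replicates 2 and 4. In fat-1 EtOH mice they took 1.97, 1.82 and 1.22% in replicates 1, 2 and 5, but 0.0181 and 0.0173% in replicates 3 and 4. In bulk tissue, fewer Paneth cells and less of these transcripts per cell cannot be told apart. By group mean, WT PF was highest for 9 of 9 members and fat-1 EtOH lowest for 9 of 9. WT EtOH came second for 7, and fat-1 PF for 2, Defa17 and Defa24. By group median, WT PF was highest for 8 and fat-1 EtOH lowest for 6.

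**Figure D2:**
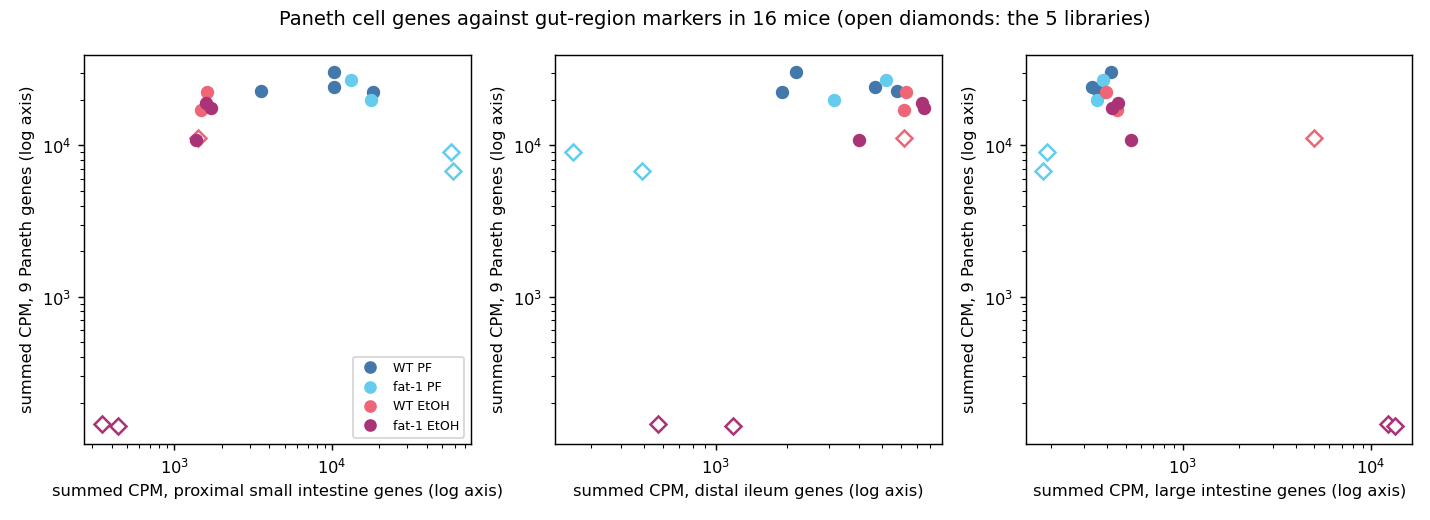
Each panel plots the summed CPM of the 9 members against the summed CPM of a list of gut-region genes, both on log axes, for the 16 mice. Open diamonds are the 5 libraries that stand apart: the 2 with 12354 and 13361 CPM of large intestine genes have 144 and 139 CPM of the members, and the 2 with 58750 and 56893 CPM of proximal genes have 6768 and 9039.

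The first comparison set genotypes against each other under pair-feeding, with 4 mice in each group. Of the members, 0 of 9 passed edgeR's quasi-likelihood test at an adjusted p of 0.05, and 0 did so at an unadjusted p under 0.05. Over all 13811 genes tested, 0% passed at the adjusted and 12.7% at the unadjusted limit. Every member had the lower mean in fat-1 PF mice. Defa22 stood at 818 ± 896 CPM (SD) in fat-1 PF and 1705 ± 251 CPM in WT PF mice, and its log2 fold change was -1.06 (SE 1.28, adjusted p = 0.79 in edgeR). Lyz1 had a log2 fold change of -0.77 (SE 1.12) and Defa17, the smallest, of -0.23 (SE 0.98). These SE rest on a spread estimated over all 16 libraries, including fat-1 EtOH replicates 3 and 4, which are outside this comparison. With the 8 compared libraries alone in the fit, edgeR passed 0 members and 0 of all genes. Lyz1 then had a log2 fold change of -0.78 (SE 0.46, adjusted p = 0.45 in edgeR). DESeq2 and limma voom passed 0 members as well, and 0.994% and 0.224% of all genes they fitted. The size of the Defa22 value depended on the fit: limma voom with sample weights gave -2.90 (SE 1.14, adjusted p = 0.18), and leaving out 1 mouse at a time in edgeR gave -1.84 to -0.68. In the 11 libraries, the log2 fold changes lay between -0.21 and 0.01, with SE of 0.20 to 0.27, and 0 members passed at either limit, against 0% and 4.84% of all genes. No member separated the groups of all 8 mice, as 6.87% of all genes tested did.

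The effect of EtOH in wild types was compared over 3 and 4 mice. Here 0 of 9 members passed in edgeR, at the adjusted limit and at an unadjusted p under 0.05, where 0.0796% and 14.1% of all genes passed. Lyz1 had 6031 ± 2024 CPM in WT EtOH and 9706 ± 1709 CPM in WT PF mice, with a log2 fold change of -0.69 (SE 1.22, adjusted p = 0.84 in edgeR). Defa24 had 4875 ± 1440 and 7603 ± 973 CPM (log2 fold change -0.64, SE 1.15). Ang4 had 635 ± 324 and 636 ± 92.7 CPM. Lyz1, Defa17 and Defa24 were lower in every WT EtOH mouse than in any WT PF mouse, 3 of 9 members against 24.3% of all genes without overlap in either direction. On log2(CPM + 0.5), an exact permutation test (two-sided) gave p = 0.0286 for each of these 3, the smallest p that 3 against 4 mice allow, and an adjusted p of 0.34 over the 36 tests of members. The p restates the separation by which these 3 were named and adds no further support. DESeq2 and limma voom passed 0 members, and 1.45% and 20.3% of all genes. With these 7 libraries alone in the fit, edgeR passed 8.32% of all genes and 1 member, Defa17, at a log2 fold change of -0.54 (SE 0.15) and an adjusted p of 0.05. In the 11 libraries 0 of 9 members passed at either limit, while 3.41% of all genes did at the adjusted and 24% at the unadjusted one. Lyz1 then had a log2 fold change of -0.44 (SE 0.27), Defa24 of -0.44 (SE 0.25), Defa17 of -0.38 (SE 0.22) and Ang4 of 0.38 (SE 0.20). When fat-1 EtOH replicate 5, a library outside these groups that shares in the estimate of spread, was left out as well, 0 of 9 members passed and 7.07% of all genes did.

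The effect of EtOH in fat-1 mice was compared over 5 and 4 animals. Again 0 of 9 members passed in edgeR, at either limit, where 37.4% of all genes did at the adjusted and 47.9% at the unadjusted one. Defa17 had 76.5 ± 72.7 CPM in fat-1 EtOH and 181 ± 51.7 CPM in fat-1 PF mice, and its log2 fold change was -1.24 (SE 0.93, adjusted p = 0.30 in edgeR). Defa24 had 2727 ± 2590 and 5253 ± 2354 CPM (log2 fold change -0.95, SE 0.99). Ang4 had 345 ± 315 and 357 ± 236 CPM (log2 fold change -0.05, SE 0.88). The groups overlapped for every member, while 24% of all genes had none. DESeq2 and limma voom passed 0 members, and 31.5% and 26.4% of all genes. Without the 2 libraries of large intestine markers, the log2 fold change was above 0 for 6 members, Lyz1, Mmp7, Ang4, Defa21, Defa22 and Defa26, and reached 0.68 (SE 0.50) for Ang4. In the 11 libraries, 0 of 9 passed and 11.9% of all genes did, with 3 members and 32.4% of all genes at an unadjusted p under 0.05. These were Defa17, with a log2 fold change of -0.71 (SE 0.23, adjusted p = 0.064 in edgeR), Defa24 (-0.63, SE 0.26, adjusted p = 0.12) and Itln1 (-0.60, SE 0.26, adjusted p = 0.14). This fit compares 3 fat-1 EtOH mice with 2 fat-1 PF mice. It keeps fat-1 EtOH replicate 5, the library with 485 CPM of B-cell follicle genes, whose values were the lowest of the 3 for all 3 genes. Without it as well, leaving 2 mice in each group, 0 of 9 members passed and 5.9% of all genes did, and the log2 fold change was -0.50 for Defa17 (SE 0.18, adjusted p = 0.094 in edgeR), -0.43 for Defa24 (SE 0.22, adjusted p = 0.23) and -0.37 for Itln1 (SE 0.21, adjusted p = 0.28). The estimate for Ang4 was 0.03 (SE 0.21) in the 11 libraries and 0.22 (SE 0.17) without fat-1 EtOH replicate 5 as well. The 11 libraries still differed by diet in the proximal genes, of which 9 of 9 were lower in fat-1 EtOH than in fat-1 PF mice.

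Genotypes were last compared under EtOH, where 0 of 9 members passed in edgeR at either limit, where 0.00724% of all genes did at the adjusted and 4.86% at the unadjusted one. The log2 fold changes lay between -1.002 for Defa22 and -0.73 for Lyz1, with SE of 0.90 to 1.29. No member separated the 2 groups, as 2.45% of all genes did. DESeq2 and limma voom passed 0 members, and 0.0281% and 0.00724% of all genes. In the 11 libraries they lay between -0.55 for Ang4 (SE 0.21, unadjusted p = 0.022 and adjusted p = 1.0 in edgeR) and -0.24 for Lyz1, and 0 of 9 members passed, against 0.00729% of all genes. Ang4 was the 1 member at an unadjusted p under 0.05, as were 3.54% of all genes. The genotype by EtOH interaction, the test of whether the response to EtOH differed between genotypes, passed 0 of 9 members, 0 at an unadjusted p under 0.05 and 0 in DESeq2 or limma voom, against 0% of all genes in each of the 3 tools and 8.26% at the unadjusted limit. Its log2 values ran from -0.70 to 0.09 with SE of 1.27 to 1.83, and from -0.40 to -0.10 with SE of 0.29 to 0.38 in the 11 libraries, where 0 members and 3.1% of all genes passed the unadjusted limit. The WT EtOH and fat-1 PF comparisons share WT PF mice, and other pairs of comparisons share groups in the same way.

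**Figure D3:**
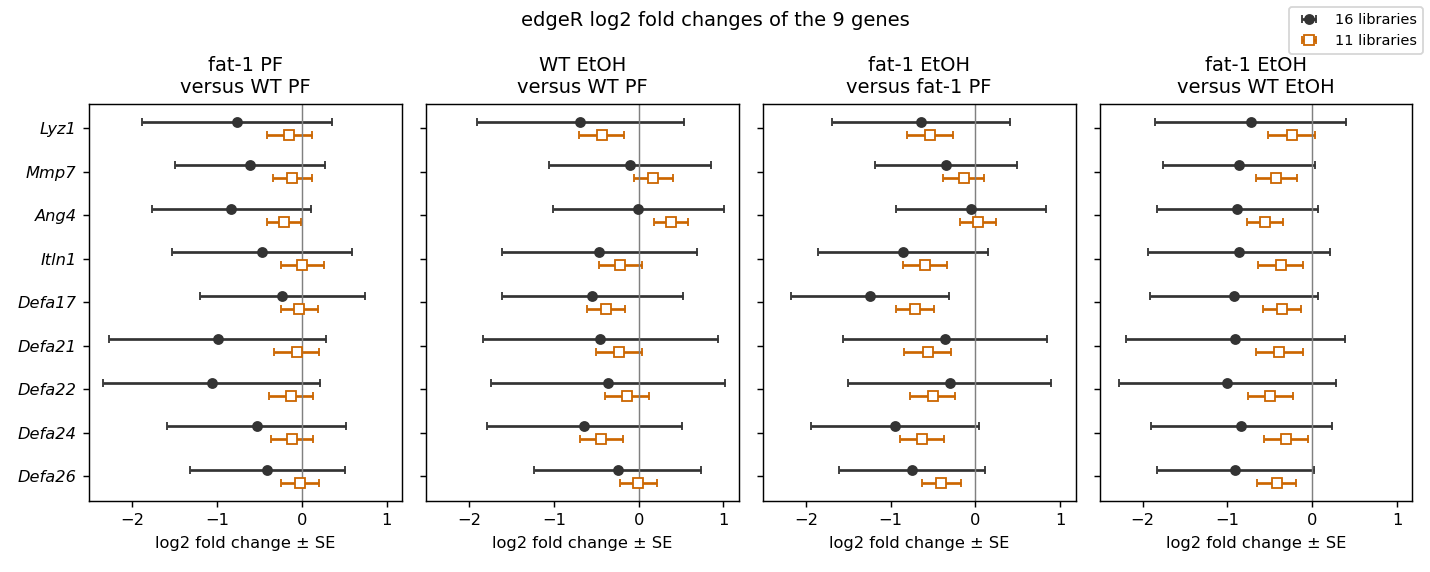
Each panel plots, for 1 comparison, the edgeR log2 fold change of the 9 members with its standard error, from all 16 libraries (filled circles) and from the 11 libraries (open squares). With 16 libraries the values lie between -1.24 and -0.002 with SE of 0.84 to 1.39, and with 11 libraries the SE are 0.20 to 0.28.

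Ratios of counts within a library do not depend on library size, and they differed between the 2 kinds of library that stood apart most. They were looked at after the values were seen and were not tested. Counts of Defa21 and Defa22 together were 0.378 to 0.578 per count of Defa24 in 14 libraries. In fat-1 PF replicates 2 and 4 the ratio was 0.0371 and 0.0389. In the fat-1 EtOH libraries of large intestine markers it was 0.464 and 0.550, within the range of the others, although these libraries held only 427 and 451 counts of Defa24. Lyz1 per Defa24 was 0.691 and 0.789 in these 2 fat-1 PF libraries and 1.05 to 1.42 in the other 14. Defa17 per Defa24 was 0.0413 and 0.0465 in them and 0.0211 to 0.0321 in the other 14.

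The ratio of Mmp7 to Lyz1 instead set apart the 2 fat-1 EtOH libraries with the most large intestine markers, and not WT EtOH replicate 2, at 0.0398. It reached 0.117 and 0.186 in replicates 3 and 4 of fat-1 EtOH, on 61 and 88 counts of Mmp7, and 0.0245 to 0.0486 in the other 14 libraries. Ang4 per Lyz1 was 0.643 and 0.200 in these 2 libraries and 0.0564 to 0.128 in the others. Itln1 per Lyz1 was 0.394 and 0.395, within the range of 0.291 to 0.512 of the others. Relative to replicates 1, 2 and 5 of their group, these 2 libraries held 2.76% of Mmp7 and 3.19% of Ang4, but 0.703% of Lyz1, 0.783% of Defa17 and 1.09% of Defa26.

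**Figure D4:**
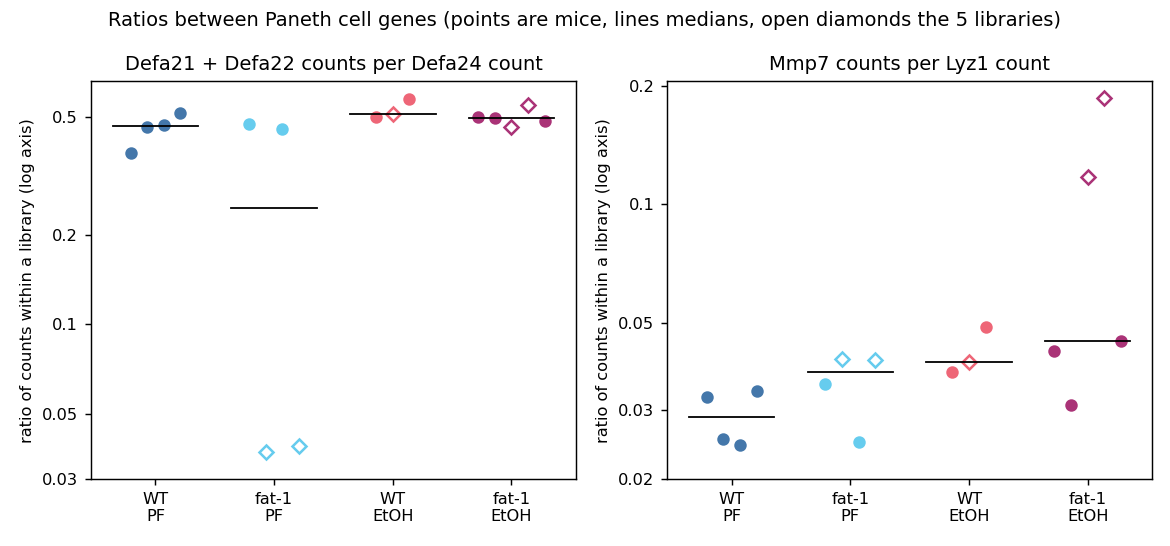
The panels plot, for each mouse by group, the counts of Defa21 plus Defa22 per count of Defa24 and the counts of Mmp7 per count of Lyz1, both on log axes with a line at the group median. Open diamonds are the 5 libraries. The first ratio is 0.0371 and 0.0389 in 2 fat-1 PF mice and at least 0.378 in all others, and the second is highest, at 0.117 and 0.186, in 2 fat-1 EtOH mice.

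The low level of Defa21 and Defa22 in fat-1 PF replicates 2 and 4 was shared by some other alpha-defensins and not by the rest. Of 16 alpha-defensin genes with at least 1 CPM in replicates 1 and 3 of the group, 7 stood in replicates 2 and 4 at 4.00 to 13.1% of that level, and 9 at 34.6 to 95.8%. The 7 were Defa21 (4.00%), Defa22 (4.02%), Defa34 (6.51%), Gm15293 (7.39%), Defa35 (8.01%), Defa5 (11.2%) and Defa29 (13.1%). These are not 7 independent values, since 6 of the 7 are linked by shared 75-base stretches: 194 between Defa21 and Defa22, 232 between Defa34 and Defa5, 104 between Gm15293 and Defa5, and 81 between Defa35 and Defa5. Among the 9 were Defa24 (48.8%), Defa26 (51.6%), Defa30 (69.7%), Defa17 (72.7%) and AY761184 (95.8%). Of the other members, Ang4 at 28.4% and Lyz1 at 29.1% stood between these sets, and Mmp7 at 40.0% and Itln1 at 42.6% within the upper one. The same 7 genes were not set apart in fat-1 EtOH replicates 3 and 4, where the 16 alpha-defensins with at least 1 CPM in the rest of that group stood at 0 to 1.37% of it.

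**Figure D5:**
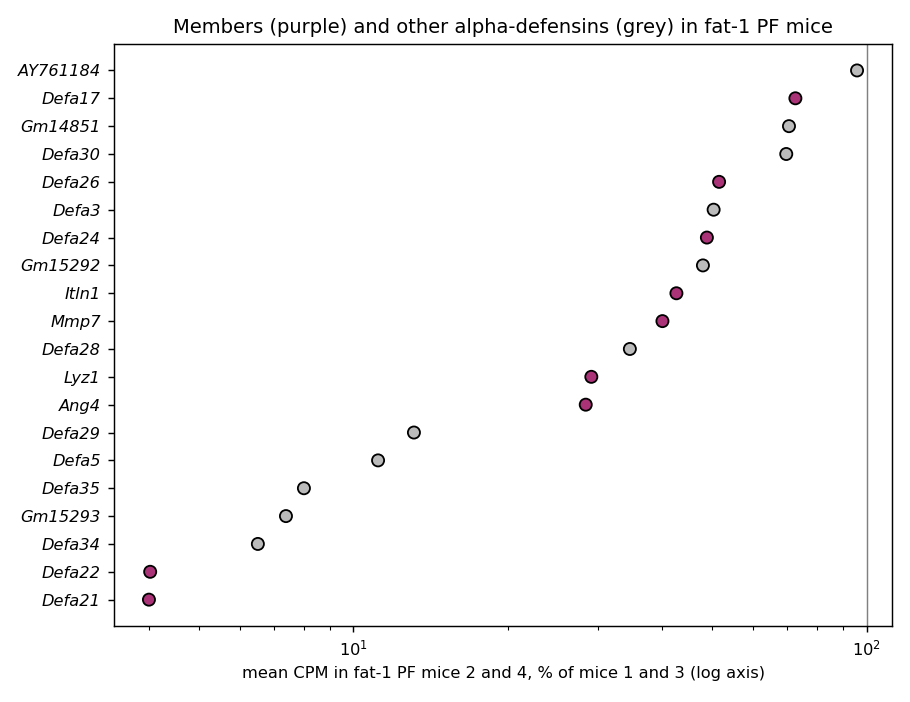
The plot gives, for each member (purple) and each other alpha-defensin (grey), the mean CPM in fat-1 PF replicates 2 and 4 as a percentage of that in replicates 1 and 3, on a log axis. Defa21 and Defa22 are lowest at 4.00 and 4.02%, and 7 alpha-defensins lie at or below 13.1% while the other 9 lie at or above 34.6%.

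Defa21, Defa22 and Defa35 were all low in those libraries, and Defa30 was less so. The 250 bases before their annotated starts are shown from RefSeq (GRCm38.p6, plus strand), 5′ to 3′. Defa30 and Defa35 were picked after the values were seen, and the other alpha-defensins outside the members were not looked up. A link between these bases and the levels was not tested. Capitals mark TATAAA, the TATA box, and CTTTGA and CTTTGT on either strand, letters to which Wnt-signalling TCF factors can bind. The upstream bases of Defa21 (chr8:21025295-21025544) and Defa22 (chr8:21162027-21162276) were identical at 250 of 250 positions and are given once.
Defa22: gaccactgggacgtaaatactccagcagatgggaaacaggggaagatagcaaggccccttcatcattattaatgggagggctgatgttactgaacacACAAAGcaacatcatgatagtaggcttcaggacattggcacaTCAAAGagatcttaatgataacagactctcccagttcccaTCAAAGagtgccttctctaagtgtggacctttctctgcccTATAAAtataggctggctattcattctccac
Defa35 (chr8:21064788-21065037): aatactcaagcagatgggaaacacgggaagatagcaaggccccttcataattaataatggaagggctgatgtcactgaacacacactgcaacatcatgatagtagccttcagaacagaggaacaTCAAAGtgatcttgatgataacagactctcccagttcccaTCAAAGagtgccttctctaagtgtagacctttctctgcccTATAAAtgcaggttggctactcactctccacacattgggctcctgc
Defa30 (chr8:21134400-21134649): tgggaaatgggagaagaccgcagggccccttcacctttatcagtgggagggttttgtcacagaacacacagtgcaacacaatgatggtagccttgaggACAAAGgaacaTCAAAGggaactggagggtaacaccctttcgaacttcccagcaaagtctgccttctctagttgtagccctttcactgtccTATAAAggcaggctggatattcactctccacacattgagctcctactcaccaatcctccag
With gaps counted, also at the ends, the alignment to Defa22 matched at 214 of 265 positions (80.8%) for Defa35 and 173 of 280 (61.8%) for Defa30. The annotated starts lie at different distances from TATAAA, so overhanging ends lower these percentages. CTTTGA occurred at 2 places in Defa22 and Defa35 and at 1 in Defa30. CTTTGT occurred at 1 place in Defa22 and Defa30, and these letters are not in the window of Defa35. TATAAA began 31 bases before the start in Defa22, 46 in Defa35 and 61 in Defa30. Of 32851 promoter entries, 12.4% held TATAAA, 13.8% CTTTGA and 16.5% CTTTGT. The entries of Lyz1, Mmp7, Ang4 and Itln1 are not shown, and Defa17, Defa24 and Defa26 had no entry.

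Likeness between genes was measured as Pearson's r of log2 CPM over the 16 libraries, as a description in which 2 libraries with almost none of these transcripts carry much of the range. The 5 genes most like the mean of the members were Habp2 (r = 0.993), Gm15292 (0.990), Defa29 (0.989), Defa3 (0.988) and Ocm (0.988). Over the 14 libraries without fat-1 EtOH replicates 3 and 4 these values were 0.929, 0.900, 0.966, 0.893 and 0.865. Single members were most like Itln1 (Lyz1, Defa24 and Defa26), Habp2 (Mmp7 and Ang4), Defa24 (Itln1) and Gm14851 (Defa17), with r of 0.980 to 0.999, and Defa21 and Defa22 were most like each other.

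Among other Paneth cell products, 28 genes of the table and most of them alpha-defensins, 16 were tested. In fat-1 EtOH versus fat-1 PF mice 1 of 16 passed as higher and 0 as lower, where 37.4% of all genes passed, with a median log2 fold change of -0.52 against 0.05 over all genes. The gene that passed was Mptx1, a pentraxin of low abundance here (1.11 ± 0.639 CPM in fat-1 PF and 3.68 ± 2.48 CPM in fat-1 EtOH mice, log2 fold change 1.72, SE 0.58, adjusted p = 0.030 in edgeR). It did not pass in the 11 libraries (1.78, SE 0.54, adjusted p = 0.052). The lowest was the alpha-defensin-related AY761184, with 669 to 1256 CPM in WT PF, 634 to 1074 in fat-1 PF, 287 to 528 in WT EtOH and 2.87 to 471 CPM in fat-1 EtOH mice. Every EtOH mouse lay below every PF mouse for this gene, which was named as the lowest of its list. Within a genotype, 24.3% of all genes separated the diets in WT mice and 24% in fat-1 mice, in either direction. The share over both genotypes together was not counted. In fat-1 EtOH versus fat-1 PF mice the log2 fold change of AY761184 was -2.06 (SE 0.95, adjusted p = 0.10 in edgeR), and -1.34 (SE 0.31, adjusted p = 0.026) in the 11 libraries. There AY761184 and Defa29 fell, 2 of 16, a share near the 11.9% of all genes and no result about the list. In WT mice 0 of the 16 passed and 1 had an unadjusted p under 0.05, against 0.0796% and 14.1% of all genes, and the median was -0.48. In the 11 libraries 1 of 16, Mptx1, passed as higher in WT EtOH versus WT PF mice, where 3.41% of all genes passed. That fit compares 2 with 4 mice, and Mptx1 had only 9 to 16 counts in WT PF mice. This count is no result about the list. In both comparisons of genotype 0 of 16 passed, against 0% of all genes under pair-feeding and 0.00724% under EtOH, so these counts are no result about the list.

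Of 21 genes of Paneth cell differentiation and granule packaging, all tested, 5 passed as higher and 3 as lower in fat-1 EtOH versus fat-1 PF mice, and 0 passed in the other comparisons with 16 libraries, in which 0 to 0.0796% of all genes passed. These 8 of 21 are a share near the 37.4% of all genes that passed, so the count is no result about the list, and the values below describe single genes. The secretory-lineage factor genes Atoh1 (log2 fold change 1.37, SE 0.38, adjusted p = 0.013 in edgeR) and Spdef (1.76, SE 0.55, adjusted p = 0.021) rose, as did Kit, Egf and Ephb3. In the 11 libraries the changes of Atoh1, Spdef, Egf and Ephb3 did not pass (Spdef 0.04, SE 0.15). Spdef stood at 200 and 112 CPM in fat-1 EtOH replicates 3 and 4 and at 19.5 to 31.2 CPM in the other 14 libraries. Kit, a receptor gene, rose in both fits (1.99, SE 0.39, adjusted p = 0.0018; and 0.87, SE 0.14, adjusted p = 0.013). Rab8a, of vesicle traffic, fell in both (-0.97, SE 0.14, adjusted p = 0.00032; and -0.67, SE 0.13, adjusted p = 0.016). Xbp1, the secretory stress factor gene, and the autophagy gene Atg5 fell with 16 libraries, by 0.42 and 0.49 on the log2 scale. With 11 they did not pass, at values of much the same size (Xbp1 -0.40, SE 0.17, adjusted p = 0.14; Atg5 -0.38, SE 0.13, adjusted p = 0.072). Of the 21 genes, 1 passed as higher, Kit, and 1 as lower, Rab8a, in WT EtOH versus WT PF mice in the 11 libraries. That fit compares 2 with 4 mice, and 3.41% of all genes passed in it. The zinc transporter gene Slc30a2 passed only with 11 libraries (-0.59, SE 0.15, adjusted p = 0.030; -1.48, SE 0.84, adjusted p = 0.18 with 16).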

How the data were processed

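RNA-seq was made from 16 ileum libraries. The authors deposited a table of raw, unnormalized read counts by Ensembl ID, after alignment to mm10 (GRCm38). The counting settings, its use of read strand and its treatment of reads with several matches are not given in the sources used here. Symbols, positions and transcripts were those of GENCODE M21, which names 21939 of the 21965 genes. Counts were fitted with edgeR 4.0.16 in R 4.3.3 (TMM, filterByExpr, 1 mean per group, robust quasi-likelihood test, Benjamini-Hochberg adjustment over 13811 genes at 0.05). The code was tested on simulated data. Alternatives were DESeq2 1.42.0, limma 3.58.1 (voom with sample quality weights), other scalings and filters, a fit of the compared groups alone, the replicate number as a block, alpha-defensins summed, and leaving out each mouse. Single members were compared with exact two-sided permutation tests on log2(CPM + 0.5), adjusted over 36 tests. The SD is that between mice, and counting error is large beside values of few counts, such as Mptx1 in PF mice (5 to 16 counts) and Defa17 and Defa26 in fat-1 EtOH replicates 3 and 4 (7 to 14 counts). Named genes were all 9 members, the most alike genes, the highest and lowest gene of each marker list and the Paneth list genes that passed. Of the genes this rule names, 1 is not reported here. Lyz2 and the alpha-defensins outside the members, other than AY761184 and the most alike genes, were named after their values were seen. Members and lists were chosen with earlier results of these data known. Python 3.11.15 and matplotlib 3.10.9 were used for tables and plots.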

Additional observations from a re-analysis of the deposited data

How the results depend on the processing

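Each comparison was refitted under 28 settings. Of 980 values of member fold changes, 934 kept their direction and side of the limit, 45 changed direction, in 10 of 36 results, and 1 passed. That 1 was Defa17 in WT EtOH versus WT PF with the compared groups alone, which gave 1 member called, where 8.32% of all genes were. Log2 fold changes that turned above 0 were as follows, and the cause was not tested. For WT EtOH versus WT PF, Ang4 was 0.0734 with limma voom, 0.0526 with upper-quartile scaling, 0.00589 without a filter, 0.0145 with at least 10 counts in every mouse, 0.0093 with the compared groups alone and 0.38 in the 11 libraries, where Mmp7 was 0.174. For fat-1 PF versus WT PF, Itln1 was 0.00536 in the 11 libraries. For fat-1 EtOH versus fat-1 PF, limma voom gave 0.435 for Ang4, 1.32 for Defa21 and 1.38 for Defa22, upper-quartile scaling 0.0725 for Ang4, and the 11 libraries 0.0337 for Ang4. Without fat-1 EtOH replicates 3 and 4, the same comparison gave 0.106 for Lyz1, 0.383 for Mmp7, 0.679 for Ang4, 0.384 for Defa21, 0.44 for Defa22 and 0.00539 for Defa26, and fat-1 EtOH versus WT EtOH gave 0.000644 for Lyz1. Without the 5 libraries and fat-1 EtOH replicate 5, Itln1 was 0.00229 in fat-1 PF versus WT PF, Mmp7 and Ang4 were 0.162 and 0.369 in WT EtOH versus WT PF, and they were 0.0227 and 0.217 in fat-1 EtOH versus fat-1 PF. All 3 sets of left-out libraries were chosen after seeing the data. Leaving out 1 mouse at a time moved Mmp7 from -0.496 to 0.166 and Ang4 from -0.238 to 0.37 in WT EtOH versus WT PF, with the lowest values without WT EtOH replicate 3 and the highest without replicate 2. In fat-1 EtOH versus fat-1 PF it moved Ang4 from -0.458 to 0.372, Defa21 from -0.788 to 0.422 and Defa22 from -0.693 to 0.476, lowest without fat-1 EtOH replicate 1 and highest without fat-1 PF replicate 3. Over all genes, calls in WT EtOH versus WT PF went from 11 to 258 with DESeq2, 2800 with limma voom, 2 without a filter, 0 with the filter of 10 counts, 1103 with the compared groups alone, 18 with the replicate block, 273 without fat-1 EtOH replicates 3 and 4, 468 in the 11 libraries, 960 without fat-1 EtOH replicate 5 as well and 0 to 66 without 1 mouse. Those in fat-1 PF versus WT PF went from 0 to 177 with DESeq2, 31 with limma voom and up to 114 without 1 mouse, those in fat-1 EtOH versus fat-1 PF from 5170 to 3086 with the compared groups alone, 1626 in the 11 libraries and 802 without fat-1 EtOH replicate 5 as well, and those in fat-1 EtOH versus WT EtOH from 1 to 5 with DESeq2 and 0 with the compared groups alone, the block or those 6 libraries left out. With a replicate block, 0 members were called in each comparison, and fold changes in fat-1 EtOH versus fat-1 PF ran from -1.86 to -0.284, while Defa21 and Defa22 had -2.05 and -2.09 in fat-1 PF versus WT PF, as against -2.82 and -2.90 with limma voom. Same-numbered mice did not deviate together (mean correlation -0.0225 over 21 pairs, against 0.00703 over 74 other pairs). These deviations include the 5 libraries that stood apart, so the values do not decide whether the numbers pair the mice. The sum of all alpha-defensins, which does not depend on how shared reads were split among them, had log2 fold changes of -0.551, -0.591, -0.905 and -0.865 in the order of the report, with adjusted p of 0.489 or more in edgeR. The filter of 10 counts leaves out Defa17 and Defa26. With pseudocounts of 0.1 and 2, 0 permutation tests passed after adjustment.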

Other observations

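Of 11 tested genes for other crypt and epithelial antimicrobials, 2 passed as higher and 1 as lower in fat-1 EtOH versus fat-1 PF mice (edgeR), where 37.4% of all genes passed, and 1 of 11 passed in the 11 libraries, where 11.9% did. The counts are no result about the list. Retnlb, which encodes the goblet cell protein RELM-beta, rose from 0 to 0.683 CPM in fat-1 PF mice to 1.19 to 70.2 CPM in fat-1 EtOH mice, with a log2 fold change of 6.98 (SE 1.47, adjusted p = 0.0028), and of 3.38 (SE 0.96, adjusted p = 0.048) in the 11 libraries. Its fold rests on fat-1 PF libraries at or near 0. Reg3a, a C-type lectin gene, ranged over 3.85 to 106 CPM in fat-1 EtOH mice and 104 to 451 CPM under pair-feeding (log2 fold change -2.02, SE 0.79, adjusted p = 0.057).

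Of 6 smooth muscle genes, 6 passed as higher in fat-1 EtOH than in fat-1 PF mice with 16 libraries, where 37.4% of all genes passed in either direction, and 5 with 11, where 11.9% did. The gene that did not pass with 11 was Des (0.64, SE 0.20, adjusted p = 0.055). Cnn1, a calponin gene, rose by 1.81 on the log2 scale (SE 0.27, adjusted p = 0.00043 in edgeR), and by 1.13 (SE 0.19, adjusted p = 0.014) in the 11 libraries. Of 9 goblet cell genes, 4 passed as higher and 1 as lower with 16 libraries, and 1, Clca1, as higher with 11, shares that are no result about the list beside 37.4% and 11.9% of all genes. The mucin gene Muc2 rose by 2.04 (SE 0.52, adjusted p = 0.0083) with 16 libraries and did not pass with 11 (0.43, SE 0.18, adjusted p = 0.12). Zg16, which encodes a lectin-like granule protein, fell by 0.58 (SE 0.16, adjusted p = 0.012) with 16 libraries and did not pass with 11 (-0.59, SE 0.21, adjusted p = 0.093).

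The highest and lowest tested genes of the other marker lists in fat-1 EtOH versus fat-1 PF mice had these log2 fold changes in edgeR with 16 libraries. In the crypt stem cell list they were Slc12a2 (0.96, SE 0.27, adjusted p = 0.012) and Olfm4 (-1.11, SE 1.01, adjusted p = 0.40), and in the all-epithelium list Krt19 (0.59, adjusted p = 0.042) and Vil1 (-0.88, adjusted p = 0.046). Neither Slc12a2, Krt19 nor Vil1 passed with 11 libraries. In the proximal list the lowest was Lct (-10.8), which passed in both fits. In the distal ileum list they were Slc10a2 (1.42, adjusted p = 0.29) and Fgf15 (-0.99, adjusted p = 0.62), and in the large intestine list Car1 (10.4, adjusted p = 0.033) and Car4 (0.87, adjusted p = 0.054). With 11 libraries Car1 did not pass in edgeR (9.5, SE 3.86, adjusted p = 0.13), and Car4 was at 0.13 (SE 0.24). In the macrophage and neutrophil list they were Mrc1 (0.46, adjusted p = 0.19) and Csf1r (-0.40, adjusted p = 0.51), in the B-cell follicle list Fcer2a (2.49, adjusted p = 0.14) and Cd79a (1.03, adjusted p = 0.43), and Cela1 was the 1 pancreas gene tested (1.09, adjusted p = 0.19). With 11 libraries Csf1r and Cela1 changed direction, to 0.64 (SE 0.39) and -0.50 (SE 0.27).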
